A study of Homo sapiens with 12 samples.

Results

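Interferon-stimulated and RNA-sensing genes were followed in MDA-MB-231 cells, a human triple-negative breast cancer line, after siRNA knockdown of NONO or of PKM2. The set holds 49 genes chosen by symbol, and both deposited gene tables listed all 49 among 60623 genes for the NONO experiment and 60671 genes for the PKM2 experiment. The 12 RNA-seq libraries formed 4 groups of 3, namely NONO_KD with its own negative control group (NC) and PKM2_KD with its own NC group. All cells carried the wild-type genotype of the same line. Per the study's methods, the NC cells received a negative control siRNA and transfection used a lipid reagent, so the controls had also taken up a short double-stranded RNA. The labels did not say which siRNA was used for each target, how long after transfection the RNA was taken, or whether the repeats were separate cultures, so P values measured the spread between these libraries only. The question was whether either knockdown moved the interferon genes against its controls.

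Cells recognise foreign or misplaced RNA through the cytoplasmic helicases RIG-I (DDX58) and MDA5 (IFIH1), with LGP2 (DHX58) as a regulator. RIG-I and MDA5 signal through the mitochondrial adaptor MAVS and the kinase TBK1 to the transcription factors IRF3 and IRF7. These factors switch on interferon genes, and secreted interferon acts through its receptors and the kinases JAK1 and TYK2 to assemble a complex with STAT2 and IRF9 that binds the interferon-stimulated response element. The genes so induced encode proteins that bind viral RNA, stop translation, degrade RNA, block membrane fusion or tag proteins with the ubiquitin-like modifier ISG15. IRF1 and IRF3 can bind many of the same elements without secreted interferon. NONO is a nuclear RNA-binding protein of paraspeckles, and PKM2 is the M2 isoform of pyruvate kinase made from the PKM gene.

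The response element is built from repeats of the letters GAAA, and promoters were therefore searched for GAAANNGAAA on both strands (TTTCNNTTTC on the printed strand where the element lies on the other strand). The RefSeq promoter windows of 300 bases, from 250 before to 50 after each start site (GRCh38.p14), covered 39 of the 49 members. In the lines below, 30 bases are printed 5′ to 3′ on the gene's strand for the 8 members that both had a window and rose more than 2-fold after PKM2 knockdown, with the matching letters in capitals. Where a gene had several matches, the one nearest its start site was taken.
IFIT1: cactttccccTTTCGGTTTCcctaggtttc
IFIT3: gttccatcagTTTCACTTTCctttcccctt
IFI44: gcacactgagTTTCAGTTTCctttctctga
IFIH1: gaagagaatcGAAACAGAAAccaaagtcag
ISG15: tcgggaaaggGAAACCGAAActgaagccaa
ISG20: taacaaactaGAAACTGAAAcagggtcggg
HERC5: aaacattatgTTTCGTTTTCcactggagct
SAMD9: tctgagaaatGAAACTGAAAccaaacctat
The next lines show members with the same letters that did not rise. IFIT5, OAS3 and DTX3L fell after PKM2 knockdown, IFI44L did not change detectably, and MX1 was too low to test. OAS3 was low in counts, as given below.
IFIT5: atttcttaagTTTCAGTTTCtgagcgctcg
OAS3: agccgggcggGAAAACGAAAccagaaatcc
DTX3L: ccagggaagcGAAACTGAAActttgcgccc
IFI44L: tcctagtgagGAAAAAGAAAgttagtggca
MX1: gagcagaaatGAAACCGAAActgaattgtc
The distance given for each stretch runs from its first capital to the start site. The IFIT1 stretch was chr10:89392510-89392539 (plus strand, 103 bases before the start), and that of IFIT3 was chr10:89332468-89332497 (plus strand, 51 bases before the start). IFI44 had its stretch at chr1:78649761-78649790 (plus strand, 18 bases before the start), and IFIH1 at chr2:162318686-162318715 (minus strand, 21 bases before the start). For ISG15 it was chr1:1013380-1013409 (plus strand, 107 bases before the start), and for ISG20 chr15:88638937-88638966 (plus strand, 69 bases before the start). HERC5 had it at chr4:88457035-88457064 (plus strand, 74 bases before the start), and SAMD9 at chr7:93118096-93118125 (minus strand, 136 bases before the start). The IFIT5 stretch was chr10:89414554-89414583 (plus strand, 4 bases before the start), and the OAS3 stretch chr12:112938452-112938481 (plus strand, 12 bases before the start). DTX3L shared its stretch with PARP9 on the other strand, at chr3:122564322-122564351 (plus strand, 6 bases before the start). IFI44L had it at chr1:78620365-78620394 (plus strand, 73 bases before the start). The MX1 stretch was chr21:41420559-41420588 (plus strand, 11 bases after the start), inside the transcribed part. In the others the first capital lay before the start site, and the capitals of IFIT5 and DTX3L ran across it. These coordinates are GRCh38.p14 (RefSeq), whereas the submitters' processing notes name hg19, so the stretches were tied to the expression values by gene symbol only.

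Library totals ran from 19861762 to 28455268 estimated counts. The targeted genes followed the labels. NONO was 227 ± 5.95 TPM in its NC group and 48.5 ± 1.5 TPM in NONO_KD (SD, n = 3), and PKM was 1804 ± 34.8 TPM in its NC group and 168 ± 3.54 TPM in PKM2_KD (SD, n = 3). Replicate 1 of the NC group for NONO and replicate 3 of PKM2_KD lay farthest from the other libraries of their groups. The mesenchymal markers VIM, CD44, SPARC, AXL and MSN were high in all 12 libraries, and of 6 epithelial and receptor markers CDH1 stayed at or under 0.06, ESR1 at or under 0.12 and PGR at or under 0.41 TPM. The other 3 were above 1 TPM in all libraries, with EPCAM at 1.29 to 3.73 TPM, GATA3 at 1.33 to 4.37 TPM and ERBB2 at 13.7 to 35.2 TPM. ERBB2 measured 26.3 to 27.0 TPM in the NC libraries and 13.7 to 15.2 TPM in the PKM2_KD libraries. Of 8 immune markers, CD3E and CLEC4C were at 0 in all 12 libraries and PTPRC did not pass 0.15 TPM. CD14 was low but present in all 12 libraries, at 0.44 to 1.82 TPM. CD68 was far higher at 52.6 to 153 TPM, and its values were lower in PKM2_KD (52.6 to 54.5 TPM) than in the matching NC libraries (133 to 135 TPM). The summed immune markers were 123 to 128 TPM in the NC group and 149 to 153 TPM in NONO_KD, and 134 to 137 TPM in the NC group and 53.5 to 55.5 TPM in PKM2_KD, nearly all from CD68, whose part in the results was not tested.

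The members moved up after PKM2 knockdown, whereas NONO knockdown moved about as many up as down. After PKM2 knockdown 21 of 41 tested members were raised and 5 were lowered at an adjusted P below 0.05, a share of 51.2% raised against 33.6% of all 15524 genes tested, and 12.2% lowered against 34.7%. In either direction 63.4% of the members were called, against 68.4% of all genes. After NONO knockdown 6 of 40 tested members were raised (15.0%, against 16.2% of all 14832 genes) and 8 were lowered (20%, against 17.2%), shares near the background. The lowered members include IFI6 after NONO knockdown, which the low-count filter selected toward a fall. OAS3 after PKM2 knockdown and GBP1 after NONO knockdown were low in counts. In the PKM2 experiment the median log2 fold change of the members was 0.43 and in the NONO experiment -0.08, beside -0.01 over all genes in each experiment. The PKM2 median was 0.26 without replicate 2 of the NC group and 0.081 by limma with members near 0 TPM included. Fold changes and tests came from library-scaled estimated counts, and levels are given as TPM, a share of all transcripts that also corrects for transcript length.

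The study's own cutoff asks for more than a 2-fold change together with a P under 0.05 before adjustment. By it 12 members rose after PKM2 knockdown (29.3%, against 7.05% of all genes) and 2 fell (4.88%, against 13.8%). The 2 were MAVS and OAS3, and OAS3 was low, with 231 estimated counts over the NC group and 59 over PKM2_KD. By the same cutoff no member rose after NONO knockdown (0.789% of all genes did) and 3 fell (7.5%, against 2.16%). Those 3 were IFI6, OAS3 and GBP1, all low in counts. IFI6 passed the low-count filter only through its NC libraries and was thereby selected toward a fall. With so few genes nothing is read from that share. With any fold allowed, edgeR gave 10 members raised (25.0%, against 20.6% of all genes) and 8 lowered (20%, against 22.0%) by NONO knockdown at an unadjusted P below 0.05. At an adjusted P below 0.05 DESeq2 gave 7 raised and 7 lowered of 37 members with an adjusted P (18.9% each, against 15.9% and 15.6% of all genes). Limma on log2(TPM + 1) gave 4 raised and 5 lowered of 34 members (11.8% and 14.7%, against 6.61% and 12.6%). After PKM2 knockdown DESeq2 gave 21 raised and 5 lowered of 41 (51.2% and 12.2%, against 33.0% and 32.5%), and limma gave 20 and 4 of 35 (57.1% and 11.4%, against 25.1% and 34.7%). In PKM2_KD, 19 of the 21 raised members had every knockdown library above every NC library in TPM, with HERC6 and ADAR the exceptions, and all 5 lowered members lay below every NC library. Called or not, 21 of 41 tested members lay wholly above their NC libraries (51.2%, against 26.5% of all genes) and 6 wholly below (14.6%, against 38.9%). Without replicate 3 of PKM2_KD the counts were 21 raised and 5 lowered, with 80.8% of the member calls raised, against 49.5% of all calls. Without replicate 1 of the NC group for NONO they were 7 raised and 12 lowered, with 36.8% of the member calls raised, against 51.0% of all calls. With all libraries these NONO shares were 42.9% and 48.4%. The members added without replicate 1 of that NC group were ISG20, STAT2, IFITM1 and PARP9 among the lowered and TBK1 among the raised. In bulk RNA, more cells expressing a gene and more RNA per cell cannot be told apart.

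**Figure D1:**
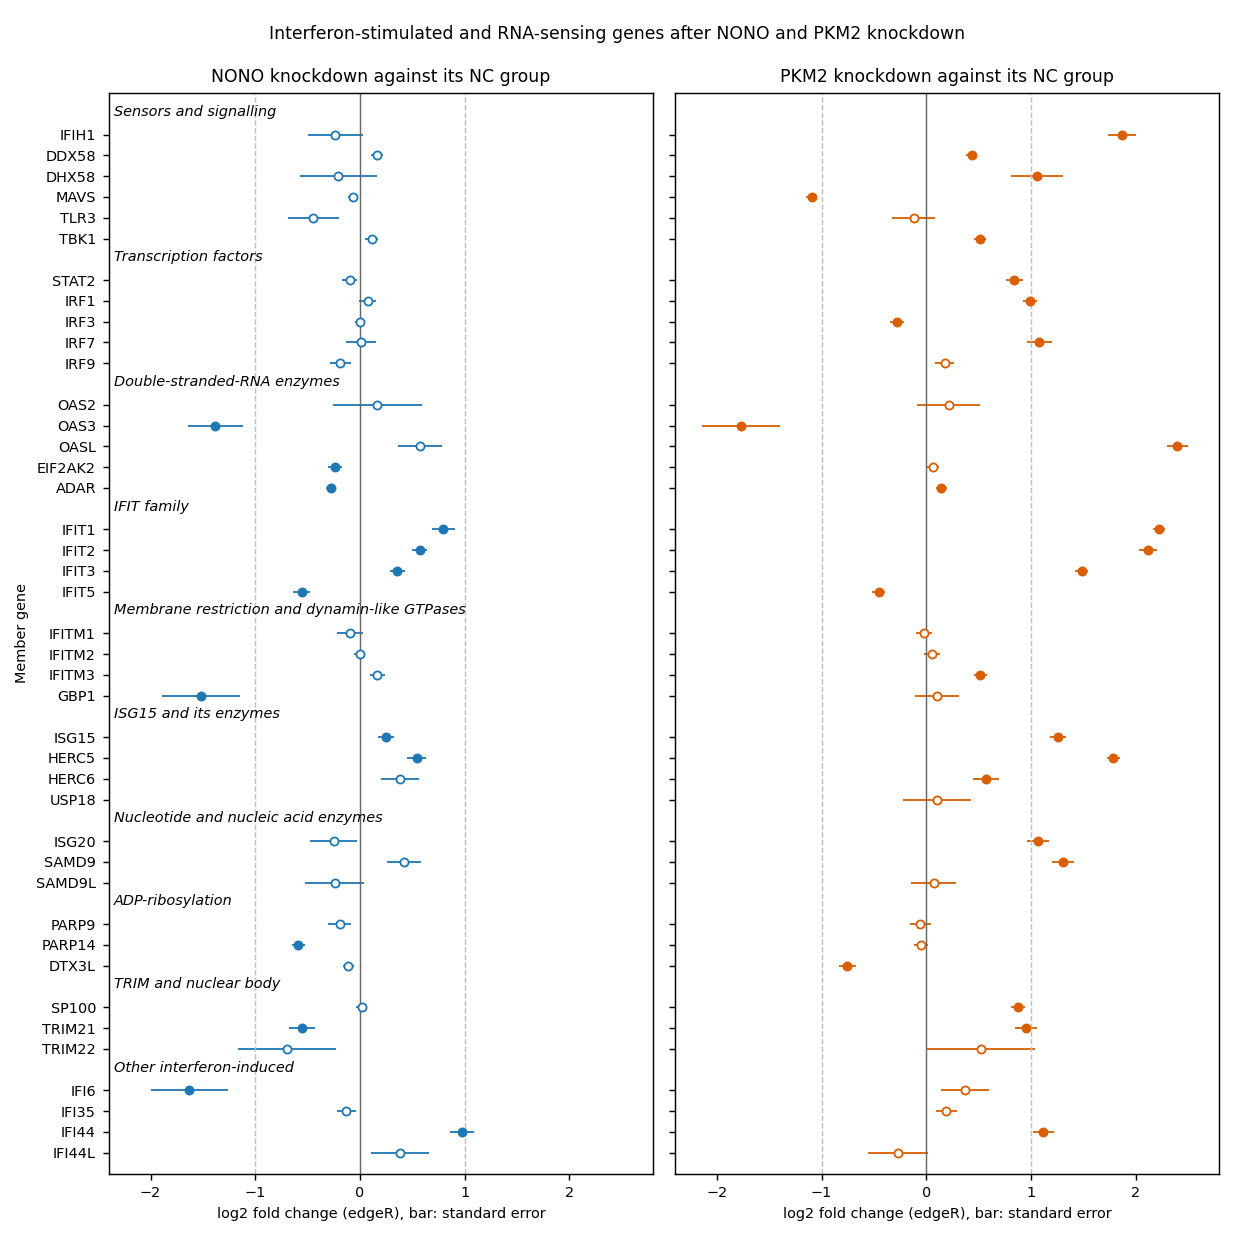
Each dot is the log2 fold change of a tested member gene after NONO knockdown (left, blue) or PKM2 knockdown (right, orange) against its NC group, with the standard error as a bar; filled dots had an adjusted P below 0.05, and dashed lines mark a 2-fold change. Most dots of the right panel lie above 0, led by OASL at 2.40, while those of the left panel lie on both sides.

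Summed over all 49 members, the level was 1899, 1941 and 2021 TPM in the NC libraries of the PKM2 experiment and 2672, 2667 and 2724 TPM in PKM2_KD. For NONO the sum was 1763, 2015 and 1958 TPM in the NC libraries and 2023, 1880 and 1893 TPM in NONO_KD. The PKM2 groups were apart and the NONO groups overlapped. IFITM1, IFITM2, IFITM3 and ISG15 made up most of each sum. Without these 4 genes the remaining 45 summed to 550 ± 9.10 TPM in the NC group and 795 ± 44.5 TPM in PKM2_KD (SD, n = 3), and to 546 ± 18.4 TPM in the NC group and 517 ± 21.9 TPM in NONO_KD (SD, n = 3).

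The IFIT genes encode tetratricopeptide-repeat proteins that bind viral RNA ends and block its translation, and the family split. IFIT1, IFIT2 and IFIT3 rose in both experiments, and IFIT5, beside them on the chromosome, fell in both. IFIT1, which recognises RNA lacking cap methylation, measured 5.18, 5.08 and 5.28 TPM in the NC libraries and 23.5, 21.8 and 21.5 TPM in the PKM2_KD libraries. The groups were apart, with a log2 fold change of 2.22 (SE 0.06, edgeR adjusted P = 1.53e-10), or 4.67-fold. After NONO knockdown IFIT1 moved from 3.21, 2.63 and 3.32 TPM to 5.34, 4.64 and 5.3 TPM, a log2 fold change of 0.80 (SE 0.11, edgeR adjusted P = 0.000305). Only 124 of the other tested genes had a larger log2 fold change than IFIT1 after PKM2 knockdown.

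IFIT2, a partner of IFIT1 and IFIT3 in RNA-binding complexes, measured 14.1, 16.5 and 13.6 TPM in the NC libraries and 67.4, 57.5 and 51.3 TPM in the PKM2_KD libraries. The lowest knockdown library was above every control, and the log2 fold change was 2.12 (SE 0.08, edgeR adjusted P = 1.75e-09). In the NONO experiment it measured 9.12, 8.55 and 8.79 TPM in the NC libraries and 12.7, 12.2 and 12.8 TPM in the NONO_KD libraries, again without overlap, with a log2 fold change of 0.57 (SE 0.07, edgeR adjusted P = 0.000102). IFIT3, which stabilises IFIT1, measured 38.6, 39.8 and 34.5 TPM in the NC libraries and 104, 94.9 and 88.9 TPM in the PKM2_KD libraries, a log2 fold change of 1.48 (SE 0.06, edgeR adjusted P = 2.33e-09). Its rise after NONO knockdown was smaller, from 27.1, 23.6 and 24.8 TPM to 33.5, 28.7 and 30.4 TPM and a log2 fold change of 0.36 (SE 0.08, edgeR adjusted P = 0.00379).

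IFIT5, the family member that binds 5′-phosphorylated RNA, went the other way. It measured 11.7, 11.4 and 11.3 TPM in the NC libraries and 7.95, 7.51 and 7.47 TPM in the PKM2_KD libraries, a log2 fold change of -0.45 (SE 0.06, edgeR adjusted P = 4.97e-05). NONO knockdown took it from 11.5, 9.94 and 11.1 TPM to 6.82, 7.0 and 7.47 TPM, a log2 fold change of -0.56 (SE 0.08, edgeR adjusted P = 0.000322). The groups did not overlap in either experiment, and the difference between the effects of PKM2 and NONO knockdown was not called, at 0.09 (SE 0.10, edgeR adjusted P = 0.483). The IFIT5 promoter stretch printed above holds the same letters as those of IFIT1 and IFIT3.

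**Figure D2:**
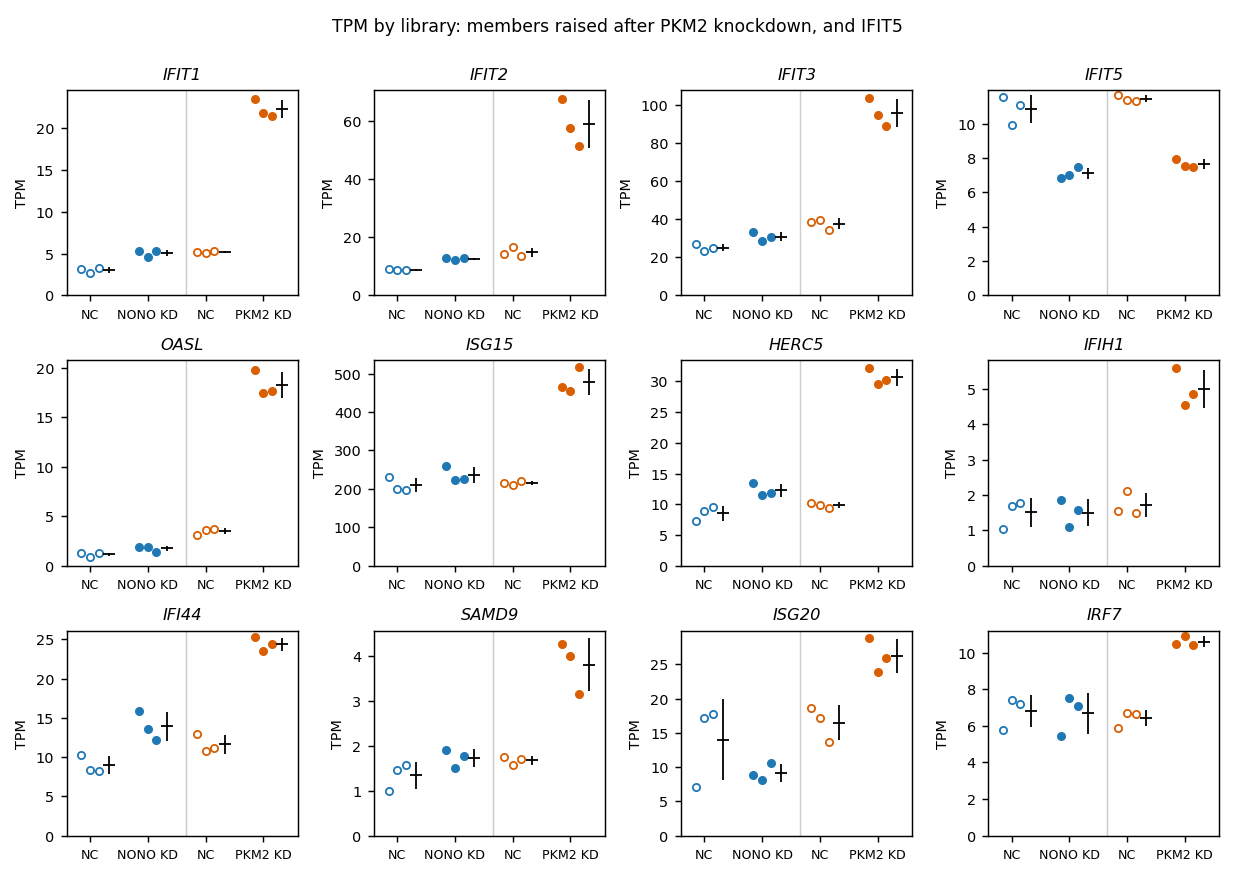
TPM of 12 members in each library (dots; open for NC, filled for knockdown; NONO experiment in blue, PKM2 experiment in orange), with the group mean and SD as a black mark beside the dots. The 11 members other than IFIT5 lie higher in every PKM2_KD library than in the matching NC libraries, and IFIT5 lies lower in both knockdowns.

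Among the enzymes that act on double-stranded RNA, OASL rose most. OASL is an OAS-like protein without synthetase activity that binds RIG-I. It measured 3.13, 3.63 and 3.66 TPM in the NC libraries and 19.8, 17.4 and 17.6 TPM in the PKM2_KD libraries, 5.28-fold higher by counts, with a log2 fold change of 2.40 (SE 0.10, edgeR adjusted P = 1.9e-09). It had the largest fold change of all tested members, and 89 other genes of the table exceeded it. After NONO knockdown it measured 1.23, 0.90 and 1.24 TPM in the NC libraries and 1.91, 1.89 and 1.41 TPM in the NONO_KD libraries, and its log2 fold change was 0.58 (SE 0.21, edgeR adjusted P = 0.056), short of the threshold although the TPM groups did not overlap.

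The synthetases that make the activator of RNase L did not follow OASL. OAS3, the long-RNA sensor of the family, measured 1.32, 1.38 and 1.07 TPM in the NC libraries and 0.10, 1.03 and 0.38 TPM in the PKM2_KD libraries, a log2 fold change of -1.77 (SE 0.37, edgeR adjusted P = 0.00121). In the NONO experiment it measured 0.95, 0.79 and 1.17 TPM in the NC libraries and 0.34, 0.82 and 0.24 TPM in the NONO_KD libraries, a log2 fold change of -1.38 (SE 0.27, edgeR adjusted P = 0.0022), with 1 knockdown library inside the control range. In the PKM2 test OAS3 had 231 estimated counts over the NC group and 59 over PKM2_KD. It reached the level asked by the low-count filter in 3 NC and 2 PKM2_KD libraries. OAS2 stayed at or under 0.87 TPM in all libraries and was not called in either experiment, and OAS1 did not pass 0.21 TPM.

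ADAR, the editing enzyme that converts adenosine to inosine in double-stranded RNA, fell after NONO knockdown. It measured 58.5, 55.0 and 63.7 TPM in the NC libraries and 44.9, 44.2 and 47.0 TPM in the NONO_KD libraries, without overlap, a log2 fold change of -0.28 (SE 0.05, edgeR adjusted P = 0.000731). After PKM2 knockdown it measured 56.5, 56.1 and 54.8 TPM in the NC libraries and 62.2, 61.4 and 48.7 TPM in the PKM2_KD libraries. These groups overlapped, and the log2 fold change of 0.14 (SE 0.05, edgeR adjusted P = 0.0341) was past the threshold with all libraries and lost when any NC library or replicate 1 or 2 of PKM2_KD was left out. EIF2AK2, the kinase PKR that halts translation on double-stranded RNA, measured 28.9, 26.0 and 27.0 TPM in the NC libraries and 21.7, 26.7 and 27.6 TPM in the NONO_KD libraries. Its log2 fold change after NONO knockdown was -0.24 (SE 0.07, edgeR adjusted P = 0.0166), although the TPM groups overlapped, and the call was lost without replicate 3 of the NC group or without replicate 1 or 2 of NONO_KD. After PKM2 knockdown the log2 fold change of EIF2AK2 by counts was 0.06 (SE 0.06, edgeR adjusted P = 0.355), a call that depended on the method, as given below with its TPM values.

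ISG15 and its ligase HERC5 also rose after PKM2 knockdown. ISG15 was among the highest-expressed members, at 215, 210.4 and 219 TPM in the NC libraries and 465, 454 and 518 TPM in the PKM2_KD libraries. The PKM2 groups were apart, with a log2 fold change of 1.26 (SE 0.08, edgeR adjusted P = 5.27e-08). After NONO knockdown ISG15 measured 231, 200.4 and 197 TPM in the NC libraries and 259, 223 and 226 TPM in the NONO_KD libraries. Those groups overlapped, and the log2 fold change of 0.25 (SE 0.07, edgeR adjusted P = 0.0222) was lost when replicate 2 or 3 of the NC group or replicate 1 of NONO_KD was left out. HERC5, the main ligase for ISG15 in human cells, measured 10.2, 9.94 and 9.37 TPM in the NC libraries and 32.2, 29.6 and 30.2 TPM in the PKM2_KD libraries, a log2 fold change of 1.79 (SE 0.06, edgeR adjusted P = 8.37e-10). With NONO knocked down, HERC5 went from 7.2, 8.85 and 9.56 TPM to 13.5, 11.4 and 11.9 TPM, a log2 fold change of 0.54 (SE 0.09, edgeR adjusted P = 0.000941), without overlap.

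HERC6, the relative encoded beside HERC5, measured 2.52, 3.13 and 3.66 TPM in the NC libraries and 4.88, 5.15 and 2.79 TPM in the PKM2_KD libraries. Its groups overlapped and its log2 fold change was 0.57 (SE 0.12, edgeR adjusted P = 0.00133), a call that was lost under each limma setting. USP18, the protease that removes ISG15 and restrains the interferon receptor, stayed at or under 0.73 TPM in all libraries. It was tested in the PKM2 experiment only and was not called, at a log2 fold change of 0.11 (SE 0.32, edgeR adjusted P = 0.787). Reads of USP18 cannot be cleanly separated from its near-copy USP41.

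IFI44, an interferon-induced cytoplasmic protein, rose in both experiments. It measured 13.0, 10.7 and 11.1 TPM in the NC libraries and 25.2, 23.5 and 24.3 TPM in the PKM2_KD libraries, a log2 fold change of 1.12 (SE 0.10, edgeR adjusted P = 1.14e-06). After NONO knockdown it measured 10.3, 8.31 and 8.28 TPM in the NC libraries and 15.9, 13.6 and 12.2 TPM in the NONO_KD libraries, a log2 fold change of 0.97 (SE 0.12, edgeR adjusted P = 9.62e-05), the largest rise of any member in that experiment. The difference between the knockdowns was 0.13 (SE 0.15, edgeR adjusted P = 0.495). Its neighbour and paralogue IFI44L stayed between 0.40 and 1.28 TPM and was not called in either experiment.

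Of the nucleic acid enzymes, SAMD9 and ISG20 rose after PKM2 knockdown. SAMD9, a restriction factor that shuts down translation, measured 1.75, 1.57 and 1.7 TPM in the NC libraries and 4.27, 3.99 and 3.15 TPM in the PKM2_KD libraries, a log2 fold change of 1.31 (SE 0.11, edgeR adjusted P = 4.88e-07). ISG20, an exonuclease for single-stranded RNA, measured 18.6, 17.2 and 13.7 TPM in the NC libraries and 28.8, 23.9 and 25.9 TPM in the PKM2_KD libraries, a log2 fold change of 1.07 (SE 0.11, edgeR adjusted P = 3.31e-06). In both genes the PKM2 groups were apart. In the NONO experiment ISG20 measured 7.17, 17.1 and 17.8 TPM in the NC libraries and 8.82, 8.12 and 10.6 TPM in the NONO_KD libraries. Replicate 1 of the NC group was much lower than the other controls, and the log2 fold change was -0.25 (SE 0.23, edgeR adjusted P = 0.439) with it and -0.50 without it (edgeR adjusted P = 0.00664). SAMD9 after NONO knockdown had a log2 fold change of 0.42 (SE 0.16, edgeR adjusted P = 0.0705). SAMD9L, the neighbour of SAMD9, did not pass 1.44 TPM and was not called.

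Of the 6 sensors and signalling genes PKM2 knockdown raised 4 and lowered 1, where 33.6% of all genes were raised and 34.7% lowered. With so few genes nothing is read from these counts. None of the 6 was called after NONO knockdown by edgeR with default settings and all libraries or by DESeq2, where edgeR called 33.4% of all genes. By both tools DDX58 alone of the 6 had an unadjusted P below 0.05 there. The DDX58 value there, a log2 fold change of 0.16 (edgeR adjusted P = 0.0554), was called with relative log expression scaling, without the low-count filter, with the length offset or without replicate 2 of the NC group. TBK1 was called in the NONO experiment without replicate 1 of the NC group (edgeR adjusted P = 0.0283). IFIH1, encoding MDA5, the sensor of long double-stranded RNA, measured 1.54, 2.12 and 1.5 TPM in the NC libraries and 5.58, 4.54 and 4.85 TPM in the PKM2_KD libraries. It was 3.66-fold higher by counts, with a log2 fold change of 1.87 (SE 0.13, edgeR adjusted P = 1.52e-07). In the NONO experiment it measured 1.04, 1.7 and 1.77 TPM in the NC libraries and 1.85, 1.08 and 1.56 TPM in the NONO_KD libraries, fully overlapping, with a log2 fold change of -0.23 (SE 0.26, edgeR adjusted P = 0.542). DDX58, encoding RIG-I, the sensor of 5′-triphosphate RNA, changed less. It measured 16.6, 16.9 and 16.8 TPM in the NC libraries and 22.0, 21.4 and 18.6 TPM in the PKM2_KD libraries, a log2 fold change of 0.43 (SE 0.06, edgeR adjusted P = 2.58e-05). DHX58, encoding the regulator LGP2, measured 1.07, 1.1 and 1.61 TPM in the NC libraries and 3.62, 2.79 and 2.11 TPM in the PKM2_KD libraries and had a log2 fold change of 1.05 (SE 0.25, edgeR adjusted P = 0.00262). Its NONO log2 fold change was -0.21 (SE 0.37, edgeR adjusted P = 0.714). The difference between the knockdowns for DHX58, 1.25 (SE 0.45, edgeR adjusted P = 0.0261), was lost when replicate 3 of the NC group or replicate 2 of NONO_KD, or replicate 1 of either PKM2 group, was left out.

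MAVS, the adaptor on which RIG-I and MDA5 converge, fell while DDX58 and IFIH1 rose. It measured 21.2, 22.7 and 21.2 TPM in the NC libraries and 9.76, 9.81 and 8.24 TPM in the PKM2_KD libraries. Every knockdown library lay well below every control, a log2 fold change of -1.09 (SE 0.05, edgeR adjusted P = 9.38e-09) or 2.13-fold lower. After NONO knockdown MAVS measured 18.9, 17.1 and 17.8 TPM in the NC libraries and 16.5, 16.5 and 16.6 TPM in the NONO_KD libraries, a log2 fold change of -0.06 (SE 0.05, edgeR adjusted P = 0.347). TBK1, the kinase downstream of MAVS, measured 23.4, 24.6 and 23.6 TPM in the NC libraries and 33.6, 33.8 and 29.8 TPM in the PKM2_KD libraries, a log2 fold change of 0.52 (SE 0.06, edgeR adjusted P = 5.41e-06). TLR3, the endosomal sensor of double-stranded RNA, did not pass 1.30 TPM in any library and was not called in either experiment.

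Of the 5 transcription factors PKM2 knockdown raised 3 and lowered 1, beside 33.6% of all genes raised and 34.7% lowered. IRF1, which drives interferon genes directly, measured 24.1, 34.8 and 25.2 TPM in the NC libraries and 52.2, 53.3 and 46.0 TPM in the PKM2_KD libraries, a log2 fold change of 0.99 (SE 0.07, edgeR adjusted P = 1.31e-07). IRF7, itself an interferon-induced gene, measured 5.9, 6.68 and 6.67 TPM in the NC libraries and 10.5, 10.9 and 10.4 TPM in the PKM2_KD libraries, a log2 fold change of 1.08 (SE 0.12, edgeR adjusted P = 7.01e-06). STAT2, a subunit of the complex that binds the response element, measured 21.9, 21.7 and 24.2 TPM in the NC libraries and 47.7, 40.7 and 33.4 TPM in the PKM2_KD libraries, a log2 fold change of 0.84 (SE 0.08, edgeR adjusted P = 3.09e-06). In these 3 genes no knockdown library overlapped the controls.

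IRF3, the factor activated directly by TBK1, was the member of this group that fell. It measured 94.8, 85.3 and 95.9 TPM in the NC libraries and 67.4, 75.7 and 74.5 TPM in the PKM2_KD libraries, a log2 fold change of -0.28 (SE 0.07, edgeR adjusted P = 0.00249). IRF9, the DNA-binding partner of STAT2, measured 23.3, 28.5 and 24.3 TPM in the NC libraries and 22.6, 26.0 and 27.1 TPM in the PKM2_KD libraries and was not called, at a log2 fold change of 0.18 (SE 0.09, edgeR adjusted P = 0.098); without replicate 1 of PKM2_KD it was called. With all libraries none of the 5 factors reached even an unadjusted P below 0.05 after NONO knockdown, by edgeR, DESeq2 or limma, and their log2 fold changes lay between -0.19 and 0.07. Without replicate 1 of its NC group, STAT2 was called in the NONO experiment at a log2 fold change of -0.18 (edgeR adjusted P = 0.00395). Exons of IRF1, IRF3, TBK1, DTX3L, SP100, IRF9, IFIT2, EIF2AK2 and several other members overlap those of other genes, and whether the counting used strand was not given in the sources used here, so part of their counts may belong to the overlapping gene.

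**Figure D3:**
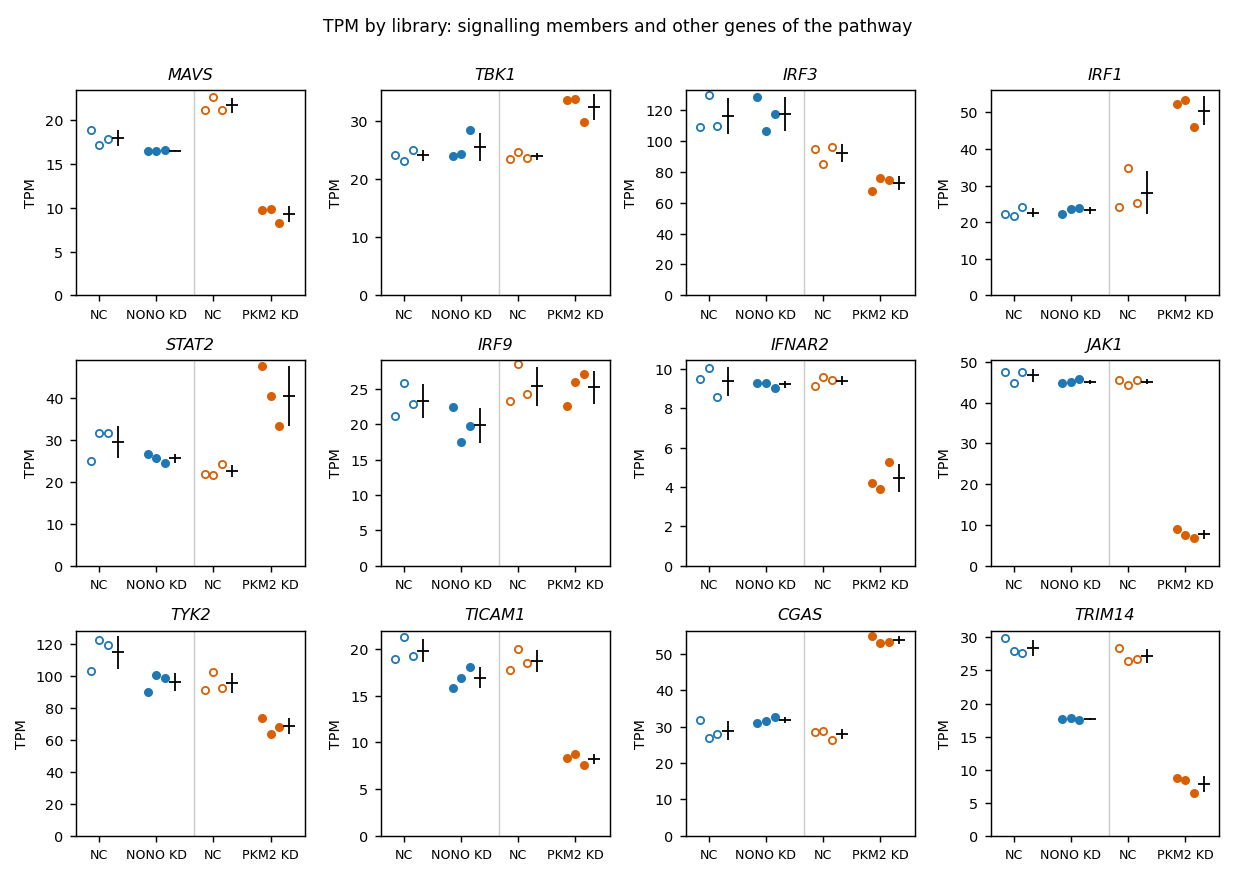
TPM of 6 signalling members (MAVS, TBK1, IRF3, IRF1, STAT2 and IRF9) and 6 other pathway genes in each library (dots; open for NC, filled for knockdown), with the group mean and SD as a black mark. After PKM2 knockdown MAVS, IFNAR2, JAK1, TICAM1 and TRIM14 lie well below their controls, while IRF1, STAT2 and CGAS lie above them.

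The IFITM genes encode proteins that block fusion of viral and cellular membranes, and IFITM3 had the highest TPM of all members. IFITM3 measured 714, 741 and 786 TPM in the NC libraries and 980.2, 975 and 1026 TPM in the PKM2_KD libraries, a log2 fold change of 0.51 (SE 0.06, edgeR adjusted P = 1.45e-05). IFITM1 and IFITM2, beside it on the chromosome, were not called, with log2 fold changes of -0.02 and 0.05. After NONO knockdown their log2 fold changes were -0.10, 0.00 and 0.17, and none was called by edgeR with the low-count filter and all libraries. IFITM3 was called by DESeq2, by edgeR without the filter and by edgeR without replicate 2 of the NC group. The 3 genes are close in sequence and IFITM1 and IFITM2 share 351 exon bases, so reads may have been split between them. GBP1, an interferon-induced GTPase that attacks pathogen membranes, measured 1.4, 1.96 and 1.5 TPM in the NC libraries and 0.19, 0.25 and 0.45 TPM in the NONO_KD libraries. The NONO groups were apart, with a log2 fold change of -1.52 (SE 0.37, edgeR adjusted P = 0.00895). Its PKM2 log2 fold change was 0.10 (SE 0.21, edgeR adjusted P = 0.692).

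TRIM21, an intracellular antibody receptor and ubiquitin ligase, moved in opposite directions. It measured 10.9, 10.2 and 9.01 TPM in the NC libraries and 16.2, 18.3 and 18.8 TPM in the PKM2_KD libraries, a log2 fold change of 0.95 (SE 0.10, edgeR adjusted P = 6.35e-06). In the NONO experiment it fell from 10.6, 11.0 and 10.8 TPM to 8.5, 6.1 and 6.47 TPM, a log2 fold change of -0.55 (SE 0.13, edgeR adjusted P = 0.00605). Neither pair of groups overlapped, and the effects differed by 1.49 (SE 0.17, edgeR adjusted P = 1.21e-06). SP100, a component of nuclear bodies that represses incoming viral DNA, measured 36.9, 38.2 and 34.3 TPM in the NC libraries and 67.2, 61.1 and 64.5 TPM in the PKM2_KD libraries, a log2 fold change of 0.87 (SE 0.07, edgeR adjusted P = 2.4e-07). TRIM22 was low and variable, between 0.11 and 2.02 TPM, and was not called.

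The ADP-ribosylation genes fell where they changed. DTX3L, a ubiquitin ligase that works with PARP9, measured 12.4, 12.9 and 12.3 TPM in the NC libraries and 7.76, 6.76 and 5.58 TPM in the PKM2_KD libraries, a log2 fold change of -0.76 (SE 0.08, edgeR adjusted P = 5.35e-06). PARP9, which shares a promoter region with DTX3L on the opposite strand, was not called, at a log2 fold change of -0.06 (SE 0.10, edgeR adjusted P = 0.63). PARP14, an ADP-ribosyltransferase, measured 12.2, 11.1 and 13.0 TPM in the NC libraries and 9.52, 8.79 and 9.04 TPM in the NONO_KD libraries, without overlap, a log2 fold change of -0.59 (SE 0.06, edgeR adjusted P = 2.95e-05). After PKM2 knockdown its log2 fold change was -0.05 (SE 0.07, edgeR adjusted P = 0.506).

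IFI6, a small interferon-induced protein of mitochondria and the endoplasmic reticulum, had the largest fall of any member after NONO knockdown. It measured 2.37, 3.52 and 2.83 TPM in the NC libraries and 1.11, 0.76 and 0.76 TPM in the NONO_KD libraries, a log2 fold change of -1.63 (SE 0.37, edgeR adjusted P = 0.00599). IFI6 and GBP1 had totals of 69 and 109 estimated counts over the NC group and 21 and 36 over NONO_KD. IFI6 passed the low-count filter of the NONO experiment only through its NC libraries, which selected it toward a fall. GBP1 reached the level asked by that filter in 3 NC and 2 NONO_KD libraries. IFI6 after PKM2 knockdown measured 4.25, 3.18 and 3.76 TPM in the NC libraries and 4.14, 4.83 and 4.49 TPM in the PKM2_KD libraries and was not called, at a log2 fold change of 0.37 (SE 0.23, edgeR adjusted P = 0.177). IFI35, at 16.5 to 24.5 TPM, was not called in either experiment.

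Several of the best-known interferon genes were barely expressed in any group. MX1, MX2, OAS1, XAF1, RSAD2, CMPK2, IFI27 and BST2 were too low to test in both experiments, and USP18 too low in the NONO experiment. None of these exceeded 2.40 TPM or 15 estimated counts in a library of the experiment where it was left out. RSAD2, encoding the antiviral enzyme viperin, had no count in any library of the NONO experiment and measured 0.17, 0 and 0.02 TPM in the NC libraries and 0, 0.04 and 0 TPM in the PKM2_KD libraries in the other. MX1, the dynamin-like GTPase commonly used as a marker of interferon exposure, measured 0, 0.55 and 0.11 TPM in the NC libraries and 0.13, 0.33 and 0.31 TPM in the PKM2_KD libraries. IFI27 measured 0.86, 0.32 and 0.58 TPM in the NC libraries and 0.10, 0.52 and 0.62 TPM in the PKM2_KD libraries, and the groups overlapped. No member of this low-expressed group was shown to rise with IFIT1 and OASL at this depth.

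Other genes of the pathway that were not members were read in the same way. Of 44 such genes 34 were tested in each experiment. PKM2 knockdown raised 14 (41.2%, against 33.6% of all genes) and lowered 13 (38.2%, against 34.7%) of them, and NONO knockdown raised 7 (20.6%, against 16.2%) and lowered 8 (23.5%, against 17.2%), shares not far from the background. The 8 interferon ligand genes looked up were IFNB1, IFNA1, IFNE, IFNK, IFNL1, IFNL2, IFNL3 and IFNG. All 8 had a count of 0 in all 12 libraries, which allows up to 0.151 CPM in the shallowest library (a limit of 3 counts for each library, covering counting error only). Other interferon ligand genes were not looked up.

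JAK1, TYK2, IFNAR1 and IFNAR2 of the receptor chain fell after PKM2 knockdown. JAK1, the kinase shared by the type I, II and III interferon receptors, measured 45.6, 44.4 and 45.5 TPM in the NC libraries and 8.94, 7.41 and 6.78 TPM in the PKM2_KD libraries. Every knockdown library lay far below every control, and the log2 fold change was -2.46 (SE 0.06, edgeR adjusted P = 8.05e-11). After NONO knockdown the log2 fold change of JAK1 was -0.02 (SE 0.04, edgeR adjusted P = 0.763), and the effects differed by -2.45 (SE 0.07, edgeR adjusted P = 1.15e-13). IFNAR2, a chain of the type I interferon receptor, measured 9.15, 9.61 and 9.46 TPM in the NC libraries and 4.21, 3.91 and 5.26 TPM in the PKM2_KD libraries, a log2 fold change of -1.05 (SE 0.11, edgeR adjusted P = 3.96e-06). IFNAR1, its partner, had a log2 fold change of -0.39 (SE 0.06, edgeR adjusted P = 0.00018). TYK2, the kinase bound to IFNAR1, measured 91.1, 103 and 92.3 TPM in the NC libraries and 73.8, 63.9 and 67.9 TPM in the PKM2_KD libraries, a log2 fold change of -0.66 (SE 0.05, edgeR adjusted P = 4.44e-07). IFNLR1, a chain of the type III receptor, was low throughout, at no more than 0.55 TPM. It passed the low-count filter of the PKM2 test only through its NC libraries, with 90 estimated counts over the NC group and 11 over PKM2_KD, which selected it toward a fall, and its fold change is not counted here.

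CGAS, the cytoplasmic DNA sensor, measured 28.5, 28.9 and 26.4 TPM in the NC libraries and 54.9, 52.9 and 53.4 TPM in the PKM2_KD libraries, a log2 fold change of 1.03 (SE 0.06, edgeR adjusted P = 2.37e-08). TICAM1, the adaptor of TLR3, measured 17.7, 19.96 and 18.5 TPM in the NC libraries and 8.32, 8.75 and 7.62 TPM in the PKM2_KD libraries, a log2 fold change of -1.06 (SE 0.07, edgeR adjusted P = 1.07e-07). IRF5, a factor used by Toll-like receptors, had a log2 fold change of -2.20 (SE 0.33, edgeR adjusted P = 8.21e-05) at no more than 2.7 TPM, and it passed the low-count filter through its NC libraries, with 181 estimated counts over the NC group and 34 over PKM2_KD. Other genes of the pathway rose after PKM2 knockdown, each at an edgeR adjusted P of 3.9e-05 or less. Their log2 fold changes were 0.97 for ISG20L2, 0.76 for TRAF3, which links MAVS to TBK1, 0.75 for ZC3HAV1, which binds viral RNA, 0.64 for IRF2, 0.61 for the DNA sensor IFI16, 0.50 for NLRC5 and 0.46 for STING1, the adaptor of CGAS. TRAF3, ISG20L2 and IFI16 were raised by NONO knockdown as well, with log2 fold changes of 0.82, 0.74 and 0.45, and NLRC5 was lowered at -0.20.

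TRIM14, which supports MAVS signalling, fell in both experiments. It measured 28.5, 26.4 and 26.7 TPM in the NC libraries and 8.69, 8.46 and 6.5 TPM in the PKM2_KD libraries, a log2 fold change of -1.68 (SE 0.09, edgeR adjusted P = 1.95e-08), and its NONO log2 fold change was -0.57 (SE 0.08, edgeR adjusted P = 0.000341). LGALS3BP, a secreted glycoprotein, measured 224, 224 and 235 TPM in the NC libraries and 98.7, 105 and 93.5 TPM in the PKM2_KD libraries, a log2 fold change of -1.11 (SE 0.05, edgeR adjusted P = 4.79e-09). SOCS1, the inhibitor of JAK kinases, fell after NONO knockdown. Its counts were low, at 139 estimated counts over the NC group and 28 over NONO_KD. It measured 2.82, 2.55 and 3.45 TPM in the NC libraries and 0.84, 0.64 and 0.35 TPM in the NONO_KD libraries, a log2 fold change of -2.23 (SE 0.34, edgeR adjusted P = 0.00054), and after PKM2 knockdown its log2 fold change was -0.41 (SE 0.21, edgeR adjusted P = 0.109).

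The difference between the knockdowns was tested directly in 1 fit over the 12 libraries. Of 42 members tested, 24 had a higher log2 fold change after PKM2 than after NONO knockdown (57.1%, against 25.7% of all 15995 genes) and 3 had a lower one (7.14%, against 27.4%). In either direction 64.3% differed, against 53.1% of all genes. Differences of more than 2-fold at an unadjusted P below 0.05 were 13 higher (31.0%, against 6.31%) and 1 lower (2.38%, against 11.8%). The median difference of the members was 0.40, beside -0.02 over all genes. The largest differences among members raised by PKM2 knockdown were those of IFIH1 at 2.09 (SE 0.29, edgeR adjusted P = 9.1e-06) and OASL at 1.81 (SE 0.20, edgeR adjusted P = 8.84e-07). MAVS, DTX3L and IRF3 were the 3 with a lower value after PKM2 knockdown. The experiments used separate NC groups and separately normalised tables, so only these within-experiment effects were compared.

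Read by call, 6 members were raised in both experiments, namely IFIT1, IFIT2, IFIT3, IFI44, ISG15 and HERC5, and these were all the members raised by NONO knockdown. For 5 of them the effect of PKM2 knockdown was the larger in the direct test, IFI44 being the exception. IFIT5 and OAS3 were lowered in both. In the PKM2 test OAS3 was low in counts and reached the level asked by the low-count filter in 3 NC and 2 PKM2_KD libraries. TRIM21 and ADAR were lowered by NONO and raised by PKM2 knockdown. IFI6, EIF2AK2, PARP14 and GBP1 were called after NONO knockdown only, all lowered, and in all 4 the direct test gave a difference between the knockdowns. A further 16 members were called after PKM2 knockdown only. In neither experiment were 10 called (25.0% of the members tested in both, against 23.0% of all genes tested in both). Of the 14525 genes tested in both experiments, 9.34% were raised in both, against 15.0% of the 40 members, and 9.93% were lowered in both, against 5%. In either direction, calls after NONO knockdown only were made for 6.69% of these genes and 10% of the members. For calls after PKM2 knockdown only these shares were 43.0% and 40.0%. By direction, the NONO-only calls were lowered for 3.39% of these genes and 10% of the members, and raised for 3.30% and no member. Of those lowered members, IFI6 was selected toward a fall by the low-count filter, and GBP1 was low in counts. The PKM2-only calls were raised for 20.8% of these genes and 32.5% of the members, and lowered for 22.2% and 7.5%. Among the 16, HERC6 had no detectable difference between the knockdowns, at 0.18 (SE 0.21, edgeR adjusted P = 0.512).

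**Figure D4:**
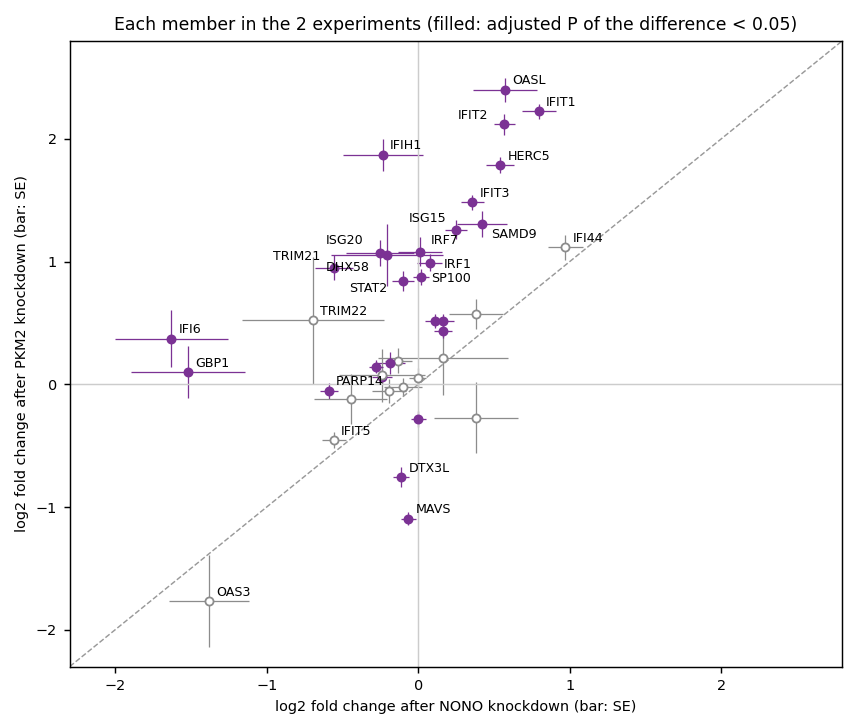
Log2 fold change of each member tested in both experiments after NONO knockdown (x axis) and PKM2 knockdown (y axis), with standard errors as bars; the dashed line marks equal effects, and filled purple dots had an adjusted P below 0.05 for the difference. Most filled dots lie above the line, while MAVS, DTX3L and IRF3 lie below it.

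Neighbouring members did not always move together. Counting members with at most 1 protein-coding gene between them as neighbours, 23 members fell into 9 neighbourhoods. The IFIT neighbourhood was the only one with called members in both directions, and it was so in each experiment. HERC5 and HERC6 had log2 fold changes of 1.79 and 0.57 after PKM2 knockdown. SAMD9 and SAMD9L had 1.31 and 0.07, and IFI44 and IFI44L had 1.12 and -0.27. Within the group of PARP9, DTX3L and PARP14 the DTX3L value of -0.76 stood beside -0.06 and -0.05. After PKM2 knockdown 5 neighbourhoods held both called and uncalled members. In that experiment 68.4% of all genes were called. The same counts were not made over neighbouring genes in general, so nothing is read from these counts of neighbourhoods.

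**Figure D5:**
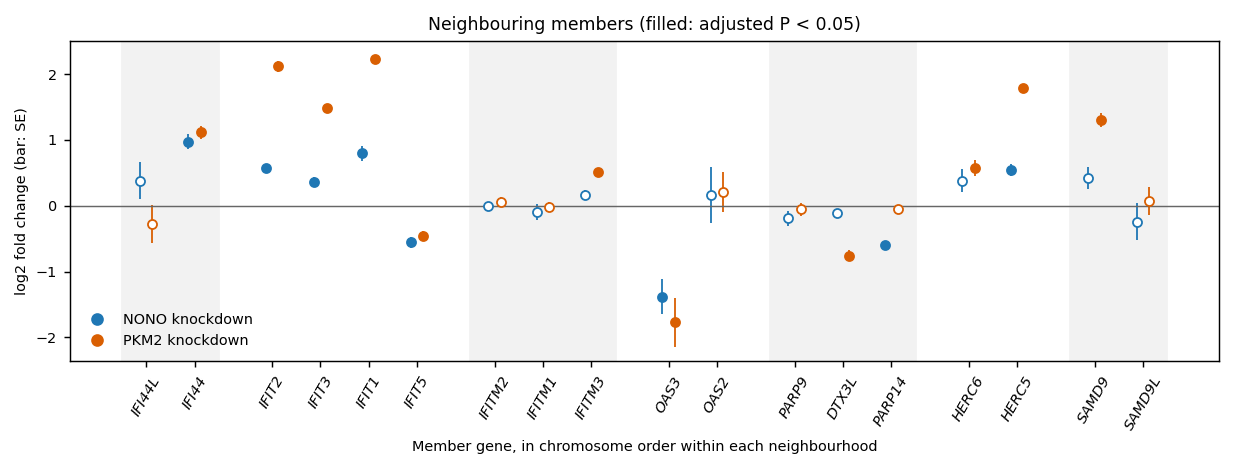
Log2 fold change of neighbouring members tested in both experiments, in chromosome order (shaded or white blocks are neighbourhoods; NONO knockdown in blue, PKM2 knockdown in orange; bars are standard errors; filled dots had an adjusted P below 0.05). In the IFIT block IFIT1, IFIT2 and IFIT3 lie above 0 and IFIT5 below 0 in both experiments.

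The promoter letters did not sort the members by direction. GAAANNGAAA was found on either strand in the windows of 25 of 39 members (64.1%), against 4.38% of all genes with a window. After PKM2 knockdown it was present in all 8 members with a window that rose more than 2-fold, in 10 of all 17 raised members with a window, in 3 of 4 lowered, in 8 of 11 not called and in 4 of 7 not tested. The raised members without it were STAT2, IRF1, DDX58, HERC6, SP100, ADAR and TBK1. After NONO knockdown it was present in 5 of 5 raised and 7 of 8 lowered members. The lowered members include IFI6 (NONO), which the low-count filter selected toward a fall, and OAS3 (PKM2) and GBP1 (NONO), which were low in counts. IFIT2, OASL, IRF7 and DHX58, which rose more than 2-fold after PKM2 knockdown, had no window in the table. A match is a description of the letters in the window and not a bound site.

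For a few members TPM and counts gave different pictures. SP100 after NONO knockdown measured 44.6, 43.8 and 43.2 TPM in the NC libraries and 39.5, 35.7 and 39.0 TPM in the NONO_KD libraries, with every knockdown library below every control, yet its log2 fold change by counts was 0.02 (SE 0.05, edgeR adjusted P = 0.839). DHX58 behaved alike, at 1.64, 1.65 and 1.76 TPM in the NC libraries and 1.03, 0.42 and 0.79 TPM in the NONO_KD libraries, with the count-based value given above. EIF2AK2 measured 28.4, 25.8 and 27.9 TPM in the NC libraries and 36.8, 33.7 and 30.5 TPM in the PKM2_KD libraries, a rise without overlap in TPM beside a log2 fold change of 0.06 by counts. It was called raised by limma on TPM, at 0.29 with a pseudocount of 1, and by edgeR with the length offset, at 0.18. TPM divides by the transcript length estimated in each library, and changes in that length were not tested here. In all, 12 of 40 tested members lay wholly below their NC libraries in TPM after NONO knockdown (24.6% of all genes did), and only 6 of those 12 were called lowered by counts.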

How the data were processed

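Poly(A) RNA was sequenced from 12 libraries as paired reads (Illumina, TruSeq kit), 3 per group, at 19861762 to 28455268 estimated counts per library. Per the submitters' processing notes the authors used fastp, HISAT2, StringTie and RSEM with build hg19, along with DESeq2, edgeR and limma; versions were not given in the sources used here. The deposited tables hold estimated counts, TPM and a length per gene, group mean TPM, and the authors' fold changes and P values, which were not used. Each table names its own NC columns, and groups came from the table together with the sample labels.

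Estimated counts were rounded and tested per table with the edgeR 4.0.16 quasi-likelihood test (R 4.3.3, TMM scaling, default low-count filter, Benjamini-Hochberg adjustment over all genes, call at adjusted P below 0.05). The low-count filter left 14832 genes in the NONO table and 15524 in the PKM2 table. The difference between knockdowns was fitted over all 12 libraries joined on gene identifier (60558 shared). Standard errors were derived from the fold change and the F statistic. Levels are deposited TPM; the tables were normalised separately, so levels were not compared between experiments. Also run were DESeq2 1.42.0, edgeR with RLE scaling, with the filter off or with the replicate number as a block, limma 3.58.1 on log2(TPM + 1) and log2(TPM + 0.1) with a mean TPM of 1 as filter or none, a length offset in 20 bins, the study's cutoff and leaving out each library. The code was tested on simulated counts.

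Members, role groups and pathway genes were chosen with earlier results of these data known. Values per library are given for members past a 2-fold change at adjusted P below 0.05, filled up to 24 by fold change, plus the role-defining sensors and factors; other members named were chosen after their values were seen. Replicate pairs differed by more than sampling noise (chi-square per degree of freedom 2.38 to 13.4). A few genes are not reported here by name.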

Additional observations from a re-analysis of the deposited data

Results flagged for a closer look

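Each member below changed differently in the 2 experiments, as tested by the difference between the log2 fold change after PKM2 knockdown and that after NONO knockdown (edgeR, adjusted P below 0.05 over all genes). Of the members with the higher value after PKM2 knockdown, the difference on the log2 scale was largest for IFIH1 by 2.09, IFI6 by 1.99, OASL by 1.81, GBP1 by 1.61, IFIT2 by 1.54, TRIM21 by 1.49, IFIT1 by 1.41 and ISG20 by 1.31. It was smaller for DHX58 by 1.25, HERC5 by 1.23, IFIT3 by 1.11, IRF7 by 1.06, ISG15 by 1.00, STAT2 by 0.93, IRF1 by 0.90 and SAMD9 by 0.87. Below these came SP100 by 0.84, PARP14 by 0.52, ADAR by 0.41, TBK1 by 0.39, IRF9 by 0.35, IFITM3 by 0.33, EIF2AK2 by 0.29 and DDX58 by 0.26. The members with the lower value after PKM2 knockdown were MAVS, with a difference of -1.04, DTX3L with -0.66 and IRF3 with -0.29. The difference of IRF9 was past the threshold with all libraries and lost when any of 7 libraries was left out, namely replicate 2 of the NC group of NONO, replicates 2 and 3 of NONO_KD, every NC library of PKM2 or replicate 3 of PKM2_KD. IFI6 and GBP1 fell from low levels after NONO knockdown and were not called after PKM2 knockdown. No group had the 4 libraries needed to look for a single library far from the rest.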

How the results depend on the processing

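Under the study's cutoff (fold change above 2, unadjusted P below 0.05) the calls became 0 raised and 3 lowered after NONO knockdown, 12 and 2 after PKM2 knockdown, and 13 higher and 1 lower for the difference, against 6 and 8, 21 and 5, and 24 and 3. Limma gave 5 members lowered by NONO knockdown with either pseudocount, and without a filter 1 raised and 4 lowered. The NONO median of -0.08 was -0.039 by limma on log2(TPM + 1). The PKM2 median of 0.43 was 0.38 without the low-count filter, 0.081 by unfiltered limma and 0.40 with the length offset. The median difference of 0.40 was 0.52 and 0.59 by limma with pseudocounts 1 and 0.1, 0.29 by unfiltered limma and 0.48 with the length offset. The unfiltered settings include members near 0 TPM, and the other causes were not tested.

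Leaving out each library in turn gave 5 to 7 raised and 7 to 12 lowered members with a median of -0.089 to 0.0055 after NONO knockdown, the positive median without replicate 2 of NONO_KD. The ranges were 20 to 21 and 5 to 5 with a median of 0.26 to 0.48 after PKM2 knockdown, and 22 to 24 and 3 to 4 with a median of 0.37 to 0.45 for the difference. The PKM2 median was 0.26 without replicate 2 of the NC group. The motif count of 25 member promoters was 16 on the printed strand only and 15 when CT had to follow.

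Of the 26 members called after PKM2 knockdown 23 were called under every alternative that tested them, and OAS3, HERC6 and ADAR were not. Of the 14 called after NONO knockdown 4 were, and 18 of the 27 called for the difference. No called member reversed. Same-numbered libraries did not deviate together (r from -0.05 to 0.04 in the NONO and from -0.07 to 0.01 in the PKM2 experiment). The labels did not say whether they were handled together, and these values cannot show it. With the replicate block the counts were 6 and 8, 21 and 5, and 23 and 3.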
